A study of Arabidopsis thaliana with 32 samples.

Results

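This report describes 47 Arabidopsis genes whose transcripts swung over 24 h in seedlings kept in long days and had little 24 h swing in seedlings moved to continuous light. A gene's value was the summed FPKM of its annotated transcripts (fragments scaled by transcript length and library size), as log2(FPKM + 1) minus the median of its library. A cosine and a sine with a period of 24 h were fitted to the 16 libraries of each light regime. Members had a fitted peak-to-trough of at least 1 on the log2 scale with an R squared of at least 0.6 in long days, and a peak-to-trough under 0.4 in continuous light. Of 32031 nuclear loci with an annotated transcript in both tables, 11357 had a mean of at least 5 FPKM in each regime, and 47 of these met all limits (0.414%). The long-day limits alone were met by 522 loci (4.6%) and the continuous-light limit alone by 7132 (62.8%). The members were thus chosen by their fitted long-day swing and R squared and their continuous-light swing. The daily curves, and the difference in them between regimes, are therefore given as a description with no test.

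The seedlings were the wild-type accession Col-0, labelled as 8 days old and grown on plates of Murashige and Skoog medium at 24 °C in long days of 16 h light and 8 h dark. They were then kept in long days or moved to continuous light for 2 more days per the labels' protocols, whereas the design text of the series says 1 day. Total RNA of whole seedlings was sequenced from 16 long-day and 16 continuous-light libraries, a single one for each of the times from 2 h to 47 h after the first dawn, at steps of 3 h. The 6 libraries at 17, 20, 23, 41, 44 and 47 h fell in the dark in long days and in the light in continuous light.

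A gene can follow the day because the circadian clock drives it, or because it answers light, darkness, temperature or the sugar made by photosynthesis. In continuous light the clock keeps running while the change between light and dark is gone. Plants hold starch made by day and use it at night, and darkness is known to raise genes for the use of amino acids and for other responses to low sugar. In whole seedlings, fewer cells that express a gene and less RNA per cell cannot be told apart.

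The bases before the gene start are shown for the member with the largest long-day swing in each span of 8 h (peak at 0 to 8, 8 to 16 and 16 to 24 h), to give the sequence behind the motif counts that follow. Each runs 5′ to 3′ on the gene's own strand over the 250 bases before its RefSeq start (TAIR10.1). Capitals mark matches, on either strand, to any of 9 short motifs searched in the window from 250 bases before to 50 bases after the start.
HB-12, chr3:22915394-22915643, minus strand: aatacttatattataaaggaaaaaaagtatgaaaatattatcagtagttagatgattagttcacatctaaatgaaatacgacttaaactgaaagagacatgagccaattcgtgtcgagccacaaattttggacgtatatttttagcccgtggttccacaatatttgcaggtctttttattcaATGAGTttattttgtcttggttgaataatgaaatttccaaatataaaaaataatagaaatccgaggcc
CYP709B3, chr4:13827939-13828188, plus strand: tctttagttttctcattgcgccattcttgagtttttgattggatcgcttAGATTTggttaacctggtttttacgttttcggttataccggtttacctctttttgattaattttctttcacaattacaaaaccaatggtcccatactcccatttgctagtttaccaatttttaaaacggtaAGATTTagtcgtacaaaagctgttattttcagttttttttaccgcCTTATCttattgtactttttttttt
ERD5, chr3:12451557-12451806, minus strand: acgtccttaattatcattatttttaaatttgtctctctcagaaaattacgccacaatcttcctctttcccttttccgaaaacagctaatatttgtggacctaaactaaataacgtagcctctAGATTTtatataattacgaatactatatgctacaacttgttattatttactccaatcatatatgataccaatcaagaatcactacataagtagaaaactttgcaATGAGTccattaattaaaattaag

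In HB-12 and ERD5 the capitals ATGAGT are the motif ACTCAT read on the other strand. That motif is known from the promoter of ERD5 itself and from other genes raised when plants recover from low water. It was found in 9 of the 47 members' windows (19.15%) and in 13.45% of all 11357 windows. In CYP709B3 and ERD5 AGATTT is the motif AAATCT, the core of a site bound by the clock factor CCA1. It was found in 21 of 47 members (44.68%) and in 38.82% of all windows. CTTATC in CYP709B3 is the I-box GATAAG, found in light-regulated genes, which was present in 11 of 47 members (23.4%) and in 15.56% of all windows. The evening element core AATATCT, a mark of many clock-driven evening genes, was in 7 of 47 members (14.89%) and in 12.08% of all windows. The G-box CACGTG was in 6 (12.77%, against 10% of all), the ABA-response core ACGTGNC in 8 (17.02%, against 12.95%) and TTGAC, the W-box core bound by WRKY factors, in 22 (46.81%, against 49.96%). The telo-box AAACCCT was in 2 (4.255%, against 9.721%) and the dehydration-response core CCGAC in 6 (12.77%, against 17.02%). A G-box can overlap an ABA-response core, and each was counted on its own. These are counts of letters in a short window.

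Most members peaked at night. The fitted long-day peak lay between 16 and 24 h after dawn in 25 of 47 members (53.19%), between 0 and 8 h in 13 (27.66%) and between 8 and 16 h in 9 (19.15%). Among the 271 loci that met the long-day limits and the same limits in continuous light, the peak lay between 16 and 24 h in 7.38%, between 0 and 8 h in 58.3% and between 8 and 16 h in 34.32%. Among all 11357 loci the corresponding shares were 35.88, 28.71 and 35.41%. The highest long-day FPKM fell in a dark library for 28 of 47 members. The 2 long-day cycles gave peak times within 3 h of each other in 47 of 47 members, and the swing was at least 1 in each cycle taken alone in 40 of 47. In continuous light the peak times of the 2 cycles were within 3 h of each other in 14 of 47. The long-day limits of the rule favour peaks and swings that repeat, and a capped continuous-light swing leaves its peak time poorly defined. The counts of dark-library maxima, cycle peaks and cycle swings were not made over all loci, so nothing is read from them.

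**Figure D1:**
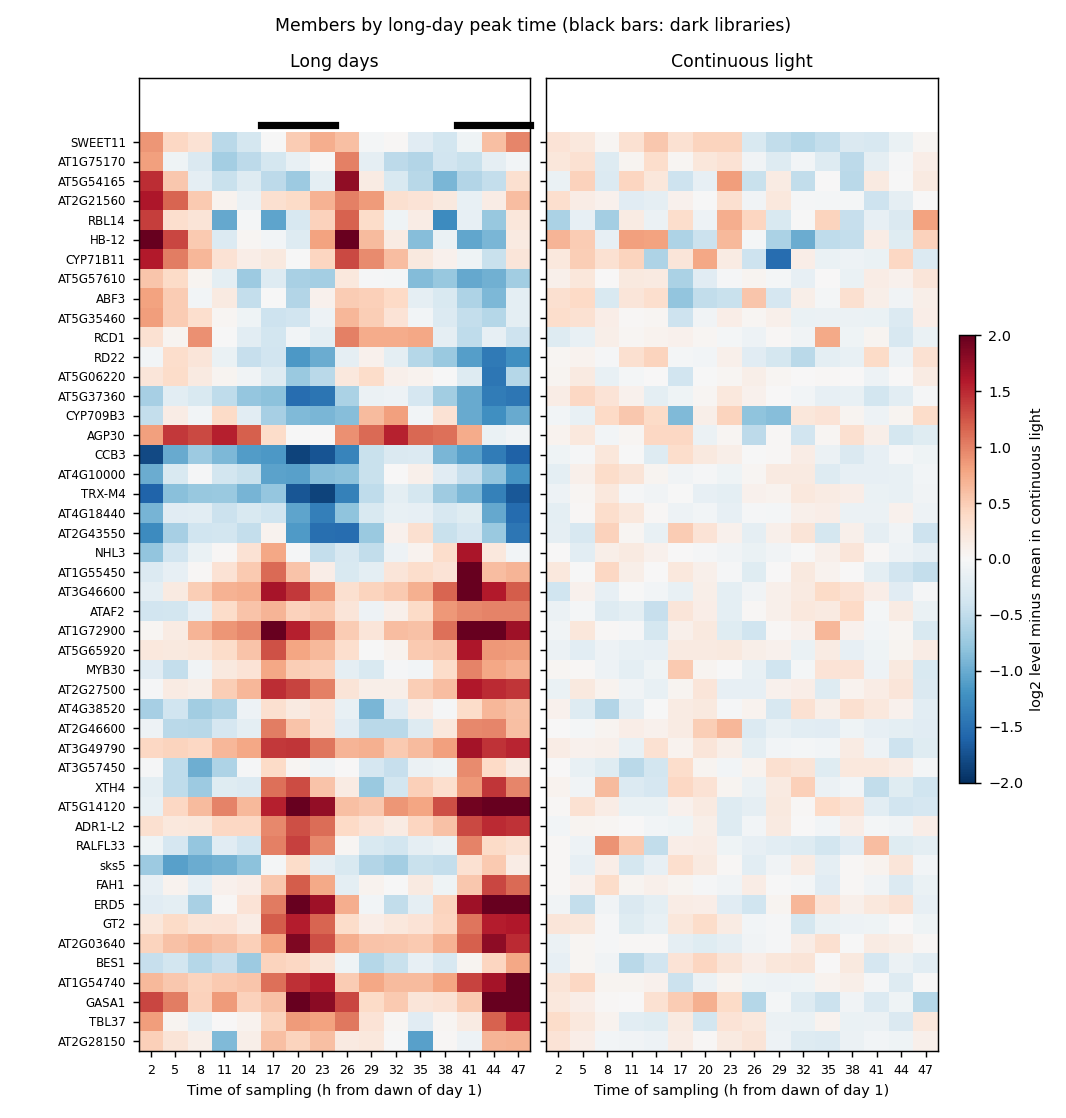
Level of each of the 47 members in each library, as log2(FPKM + 1) minus the library median and minus that gene's mean in continuous light. Genes run down the page by long-day peak time, long days are on the left, continuous light on the right, and black bars mark the dark libraries. Most of the 25 night-peaking genes are red under the dark bars on the left, with mean gaps at the dark hours from 0.05 in sks5 to 2.36 in AT5G14120. The right side is paler for most genes, but some, such as SWEET11 and GASA1, shift there between whole cycles.

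Dark and light libraries of long days lay apart in many members. In 17 of 47 members every one of the 6 dark long-day libraries lay above every one of the 10 light ones, and all 17 were night-peaking (over all loci 2.86%). In 3 members, AT5G06220, AT5G37360 and AGP30, every dark library lay below every light one (over all loci 0.59%). In 15 night-peaking members the 6 dark long-day libraries also lay above all 16 continuous-light libraries (over all loci 11.2%). In 4 members that peaked between 8 and 16 h, AT5G37360, CCB3, AT4G10000 and TRX-M4, the dark long-day libraries all lay below all 16 continuous-light libraries (over all loci 4.17%). These counts use the long-day curve that chose the members, so nothing is read from their excess over all loci.

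ERD5 (AT3G30775, chromosome 3, 12448636 to 12451556), also known as PRODH1, is the mitochondrial proline dehydrogenase that starts the breakdown of proline. It had the largest long-day swing of the 47, with a fitted peak-to-trough of 2.96 ± 0.34 (SE from the fit to 16 libraries, as for all swings below), a 7.79-fold change on the log2(FPKM + 1) scale. Its lowest, median and highest values were 8.03, 17.9 and 109.7 FPKM in long days and 8.49, 12.3 and 20.8 FPKM in continuous light. The night values in long days were 29.4, 109.7 and 47.5 FPKM at 17, 20 and 23 h, and 46.4, 109.4 and 65.6 FPKM at 41, 44 and 47 h. Both nights peaked at their middle library, and every dark library lay above every light one and above every continuous-light library. By day the regimes met: the long-day level exceeded the continuous-light level by 1.99 at the dark hours and by 0.01 at the light hours (log2 differences of means). The continuous-light swing was 0.30 ± 0.21.

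**Figure D2:**
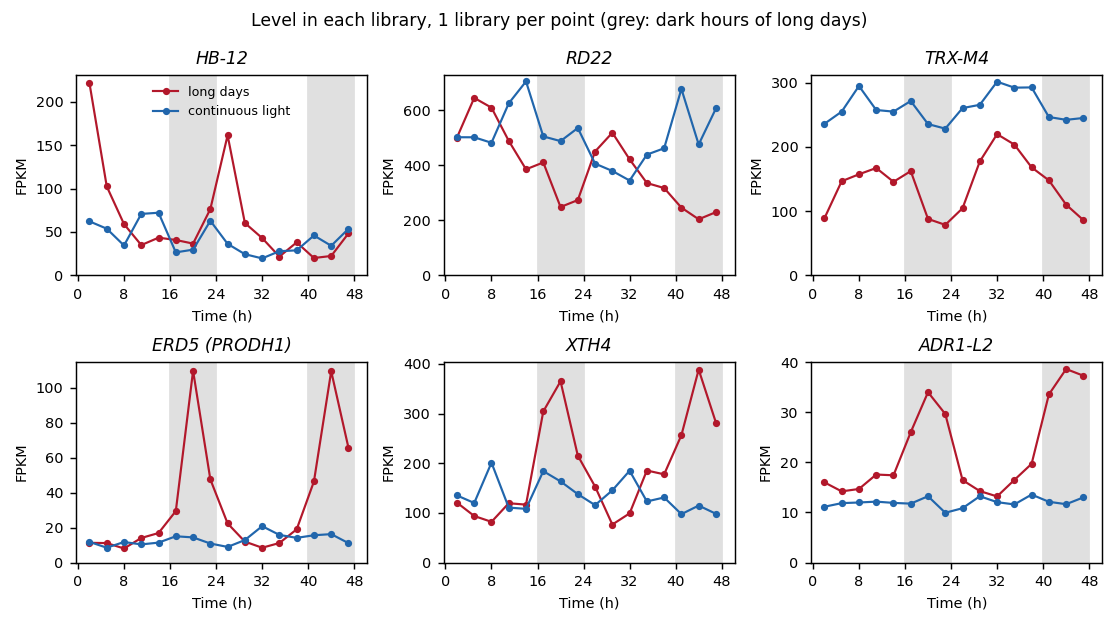
FPKM of 6 members in each library against time of sampling in h, long days in red and continuous light in blue, with dark hours of long days in grey and 1 library per point. ERD5, XTH4 and ADR1-L2 reach 109.7, 388 and 38.6 FPKM in the dark of long days, HB-12 reaches 222 FPKM at 2 h, and TRX-M4 lies below its continuous-light values throughout.

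Several genes of the cell wall and of growth were among the night-peaking members. XTH4, an enzyme that cuts and rejoins xyloglucan in the wall, had a lowest, median and highest value of 76.5, 165 and 388 FPKM in long days, against 97.4, 127 and 201 FPKM in continuous light. Its dark libraries held 215 to 388 FPKM and its light libraries 76.5 to 185 FPKM in long days, with no overlap, and the swing was 1.79 ± 0.24. GASA1, a small secreted peptide of a gibberellin-regulated family, had 88.5, 133 and 554 FPKM in long days (lowest, median and highest) and 47.4, 74 and 124 FPKM in continuous light. Its long-day values were 120.5, 546 and 288 FPKM at 17, 20 and 23 h of the first night, and 115, 544 and 554 FPKM at 41, 44 and 47 h of the second. The step up lay between the first and the second dark library of each night, and by the last one the level was lower again in the first night only. The dark and light ranges of GASA1 thus overlapped, since the first dark library of each night was still low, and the fitted peak was at 22.3 h. RALFL33, a peptide of the family that makes the apoplast alkaline and slows cell growth, reached 59.8 FPKM at 20 h in long days, with a median of 19.8 FPKM, against a highest value of 37.4 and a median of 17.8 FPKM in continuous light. AT2G27500, a glycosyl hydrolase, held 28.1 to 41.5 FPKM in the dark and 12.6 to 21.4 FPKM in the light of long days, against 9.61 to 14.9 FPKM in continuous light. sks5, of a family of copper-oxidase-like wall proteins, and TBL37, of a family linked to acetylation of wall polysaccharides, had swings of 1.23 ± 0.19 and 1.35 ± 0.16. In sks5 the long-day level met the continuous-light level at night, with a difference of 0.05 at the dark hours, and lay below it by day, with a difference of -0.63 at the light hours.

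Each member was given a single main role. Of 4 members sorted under defence or immune signalling, 2 peaked between 16 and 24 h and 2 between 8 and 16 h. MYB30, ATAF2 and AT5G54165 are also linked to defence but are described under other roles. AT1G72900 encodes a protein with a TIR domain, the signalling domain of many plant immune receptors. Its lowest, median and highest values were 7.25, 14.6 and 69.5 FPKM in long days and 4.49, 6.65 and 11.2 FPKM in continuous light. The highest values came in the first dark library of each night, with 48.5 FPKM at 17 h and 69.5 FPKM at 41 h, and the swing was 2.13 ± 0.36. ADR1-L2, a helper receptor that works downstream of other immune receptors, held 26 to 38.6 FPKM in the dark of long days and 13.2 to 19.7 FPKM in the light, against 9.94 to 13.6 FPKM in all of continuous light. Every dark value of ADR1-L2 was above every other value, and its continuous-light swing, 0.08 ± 0.08, was among the smallest of the 47. NHL3, a membrane protein of the NDR1/HIN1-like defence family, peaked at the edge of night (15.8 h) with 65.8 FPKM at 17 h and 119.5 FPKM at 41 h, over a long-day median of 37 FPKM, and with 29.1 to 43.1 FPKM in continuous light. AT2G43550, which peaked at 11.95 h, encodes a knottin-type peptide like those of plant defensins, and had 20.2 to 73.2 FPKM in long days and 42.6 to 87.1 FPKM in continuous light.

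Transcription factors made up 7 of the 47 members, 5 of them night-peaking. AT3G46600, of the GRAS family, had a lowest, median and highest value of 4.85, 10.1 and 33.4 FPKM in long days and 3.69, 5.34 and 7.36 FPKM in continuous light, with a swing of 1.52 ± 0.25. GT2, a trihelix factor that binds GT elements of light-regulated promoters, held 35 to 52 FPKM in the dark and 16.2 to 22.1 FPKM in the light of long days, and 11.7 to 20 FPKM in continuous light. MYB30, a regulator of the hypersensitive cell death response, held 12.8 to 18.3 FPKM in the dark and 5.59 to 11.5 FPKM in the light of long days, and 5.67 to 12.7 FPKM in continuous light. In each of these the dark long-day libraries lay above all continuous-light ones. ATAF2, a NAC factor of wounding and defence, had 7.38 to 21.9 FPKM in long days and 6.99 to 13.4 FPKM in continuous light. BES1, an effector of brassinosteroid signalling, had 26.5 to 78.3 FPKM in long days and 28.4 to 57.1 FPKM in continuous light, so that its ranges overlapped.

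The 2 day-peaking factors belong to water and abscisic acid (ABA) responses. HB-12, an HD-Zip factor induced by ABA and drought, had a lowest, median and highest value of 19.9, 43.1 and 222 FPKM in long days and 19.4, 35.3 and 72.1 FPKM in continuous light. Its long-day peak was sharp and just after dawn, with 222 FPKM at 2 h and 162 FPKM at 26 h, and no other long-day library above 102.5 FPKM. ABF3, a bZIP factor that binds ABA-response elements, had 21.8 to 70.5 FPKM in long days and 22.6 to 53.3 FPKM in continuous light. RD22, a dehydration-induced protein with a BURP domain, also had its lowest long-day value in the dark, as had HB-12 and ABF3. Its lowest, median and highest values were 204, 398 and 645 FPKM in long days and 344, 495 and 705 FPKM in continuous light. The difference between regimes at the dark hours was -1.14 for RD22, -0.21 for HB-12 and -0.11 for ABF3, and at the light hours it was -0.11 for RD22, 0.58 for HB-12 and 0.03 for ABF3. RCD1, a nuclear protein that binds stress transcription factors, had 31.6 to 88.9 FPKM in long days and 34.6 to 73.7 FPKM in continuous light.

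TRX-M4, CCB3 and AT4G10000, the members sorted under chloroplast proteins, peaked by day and had a lower mean level in long days than in continuous light. The lower level was not particular to them. All 27 measured photosystem and electron transport genes, none of them a member, also had a lower mean FPKM in long days. PSAD1, for example, averaged 486.5 FPKM in long days and 1346 FPKM in continuous light. TRX-M4, a thioredoxin that carries reducing power to chloroplast enzymes, had a lowest, median and highest value of 78.5, 147 and 219.7 FPKM in long days and 228, 256 and 301 FPKM in continuous light. CCB3, needed to attach a haem to the cytochrome b6f complex, had 8.31, 14.3 and 24.5 FPKM in long days and 24.9, 28.8 and 40.2 FPKM in continuous light. The 2 regimes did not overlap in either gene, which was so of 1.76% of all loci in this direction and of no other member. AT4G10000, a thioredoxin family protein, had 5.03 to 12.6 FPKM in long days and 9.59 to 14.8 FPKM in continuous light. The differences between regimes at the dark hours were -1.26 for TRX-M4, -1.54 for CCB3 and -0.82 for AT4G10000. In the other direction, all long-day libraries lay above all continuous-light ones for AT3G49790 (a carbohydrate-binding protein), AT2G03640 (an RNA-binding protein with an NTF2 domain) and AT1G54740 (FANTASTIC four-like), in an ordering that 2.13% of all loci shared. The tables were merged separately, so a difference in level between them is a description only.

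Transport and enzyme genes were spread over the day. AT5G14120, a membrane carrier of the major facilitator superfamily, had 28.5, 60.3 and 223 FPKM in long days (lowest, median and highest) and 23.3, 30.3 and 40.5 FPKM in continuous light, and its gap at the dark hours, 2.36, was the largest of the 47. SWEET11, a sucrose exporter that loads the phloem, peaked at dawn, with 109 FPKM at 2 h and 121 FPKM at 47 h over a long-day median of 65.2 FPKM, against 37.6 to 85 FPKM in continuous light. AT2G46600, an EF-hand calcium-binding protein, held 46.8 to 76.7 FPKM in the dark of long days and 22.9 to 42.9 FPKM in the light, against 27.1 to 55.7 FPKM in continuous light. FAH1, which hydroxylates the fatty acids of sphingolipids, held 40.2 to 71.9 FPKM in the dark and 23 to 30.4 FPKM in the light of long days, against 21.8 to 32.6 FPKM in continuous light. The P450 enzyme CYP709B3 peaked at 8.8 h with a swing of 1.58 ± 0.22, and AGP30, an arabinogalactan protein of the wall, peaked at 8.9 h with a swing of 1.54 ± 0.15. AGP30 was the member whose gap lay most in the light hours, with 1.198 at the light hours and 0.17 at the dark hours. AT5G54165 (a protein rapidly elicited in defence) and RBL14 (rhomboid-like) had swings of 1.65 ± 0.35 and 1.63 ± 0.34 and peaked just after dawn. Both were low, with long-day minima of 2.40 and 1.80 FPKM. RBL14 had a continuous-light swing of 0.38 ± 0.33, near the limit. It stayed a member under 2 of 7 other settings of scaling, filter and counting, and in 21 of 32 fits with 1 library left out.

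Among the members not yet described, those with an uncharacterized product or a broad family name were spread over the same pattern. The long-day swings of all 47 members ran from 1.02 to 2.96. AT2G03640, the RNA-binding protein, held 58.8 to 129.6 FPKM in the dark and 45.3 to 54.5 FPKM in the light of long days, against 26.6 to 39.6 FPKM in continuous light. AT1G54740, whose family acts on the size of the shoot meristem, held 45.7 to 91.5 FPKM in the dark and 27.6 to 36.5 FPKM in the light of long days, against 14.8 to 25 FPKM in continuous light. In both genes the day values of long days already lay above continuous light, and the night values lay above the day values. AT1G55450, a methyltransferase, reached 30.5 FPKM at 17 h and 59.7 FPKM at 41 h in long days, each in the first dark library of the night, and stayed between 8.43 and 16.4 FPKM in continuous light. AT4G38520, a phosphatase of the PP2C type, held 39.4 to 54.3 FPKM in the dark and 15.7 to 34.3 FPKM in the light of long days, and 20 to 40.6 FPKM in continuous light, where its range overlapped both. AT5G06220, a LETM1-like protein, was lowest at night, with 6.9 to 16.7 FPKM in the dark and 19.2 to 24.9 FPKM in the light of long days, against 14.9 to 21 FPKM in continuous light. CYP71B11, another P450, peaked at 2 h and 26 h with 22.3 and 18.2 FPKM in long days, while its continuous-light values lay between 1.52 and 11.9 FPKM. The swing was larger in the second long-day cycle than in the first in 38 of 47 members (80.85%) and in 54.0% of all loci. The long-day swing chose the members, so nothing is read from this excess. In some members, among them NHL3, AT1G55450 and AT1G72900, the highest long-day value was in the single library at 41 h. The mean level was higher in long days than in continuous light in 29 of 47, a count not made over all loci.

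**Figure D3:**
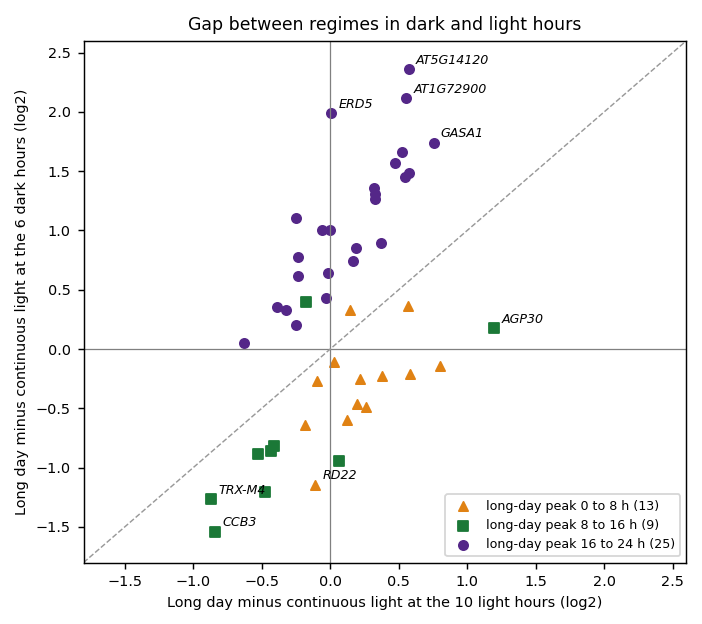
Long-day minus continuous-light level (log2) of each member at the 6 dark hours (vertical) against the 10 light hours (horizontal), with a dashed line where the gaps are equal. All 25 night-peaking members lie above 0 on the vertical axis, and in 39 of 47 members the gap is larger, in size, at the dark hours.

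The gap between the regimes was larger at the dark hours in most members, but not in all. For the 25 night-peaking members the median difference between long days and continuous light was 1.01 at the dark hours and 0.17 at the light hours, and it was above 0 at the dark hours in 25 of 25. For the 9 members with a peak between 8 and 16 h the medians were -0.88 at the dark hours and -0.43 at the light hours. For the 13 with a peak between 0 and 8 h they were -0.26 and 0.19. Over all 11357 loci the median was 0.00 at the dark hours and 0.01 at the light hours. The gap was larger, in size, at the dark hours in 39 of 47 members and in 7302 of 11357 loci. The step over dusk was read from one library to the next. Between 14 and 17 h, 25 of 25 night-peaking members were higher in the later library in long days, with a median step of 0.65, against 19 of 25 with a median of 0.25 in continuous light (over all loci 49.97 and 51.93% were higher). Between 38 and 41 h it was 24 of 25 with a median of 0.64 in long days and 9 of 25 with a median of -0.11 in continuous light (over all loci 50.77 and 47.86%). Over dawn, between 23 and 26 h, 2 of these 25 were higher in the later library in long days, with a median step of -0.51, against 10 of 25 with a median of -0.09 in continuous light (over all loci 47.29 and 50.66%). The other 22 members did the reverse over dawn, with 20 of 22 higher in the later library and a median step of 0.74 in long days, against 6 of 22 and -0.20 in continuous light. The members were chosen by a long-day swing with little continuous-light swing, and the groups were formed by long-day peak time. Their gaps at the dark hours and their long-day steps thus follow largely from the rule and the grouping. Nothing is read from them.

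**Figure D4:**
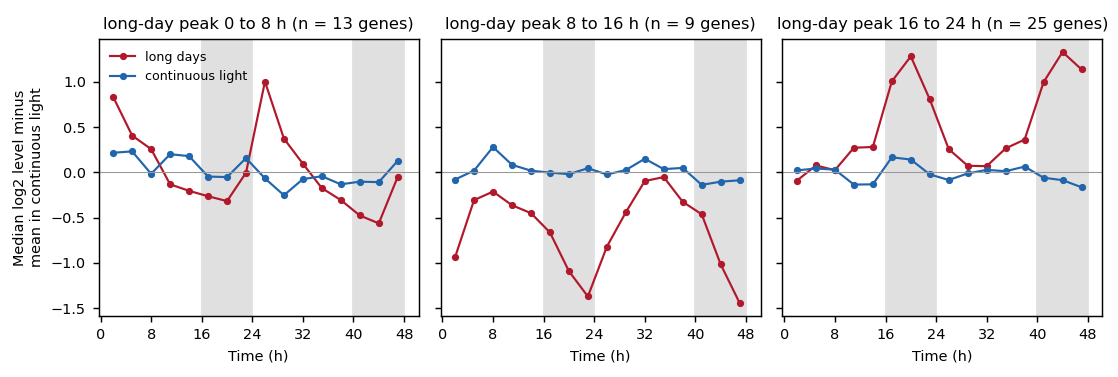
Median over members of the log2 level minus each gene's continuous-light mean, against time of sampling in h, for members that peaked at 0 to 8 h (13 genes), 8 to 16 h (9) and 16 to 24 h (25). Long days are red, continuous light blue and dark hours grey. The night-peaking median reaches 1.28 at 20 h and 1.33 at 44 h in long days and stays between -0.16 and 0.17 in continuous light.

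Members of a group followed a common long-day curve to different degrees. Across the 16 long-day libraries, the members most like the mean curve of the night-peaking group were ADR1-L2 (Pearson r = 0.987), AT3G49790 (0.972) and AT2G27500 (0.966). For the group with a peak between 0 and 8 h they were CYP71B11 (0.987), AT5G35460 (0.952) and HB-12 (0.949), and for that between 8 and 16 h TRX-M4 (0.981), AT4G18440 (0.954) and CCB3 (0.935). The mean curves include the genes compared with them and rest on the same libraries, so the r values only rank the members.

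A small 24 h component in continuous light was not the same as a level line. The range over the 16 continuous-light libraries exceeded 1 on the log2 scale in 13 of 47 members (27.66%), among them CYP71B11 with 2.29 and HB-12 with 1.81, and in 35.03% of all loci. The 24 h fit accounted for less than 0.3 of the continuous-light variance in 32 of 47, a count not made over all loci. The limit on the continuous-light swing favours a low share, so nothing is read from that count. The median continuous-light swing was 0.30 in the members and 0.31 over all loci, and the rule capped it in the members. Values lay close to each limit. Just inside the long-day limit of 1 were AT3G57450 (1.02), AT1G75170 (1.03) and AT4G10000 (1.03), and just outside, among 612 loci kept out by it alone, AT4G29950 (0.996), TET8 (0.99) and DBE1 (0.98). For R squared, AT2G28150 (0.613), AT5G14120 (0.621) and RCD1 (0.622) were just inside, and GolS2 (0.593), TIL (0.589) and CSLE1 (0.587) just outside among 213. For the continuous-light limit of 0.4, AT5G37360 (0.399), AGP30 (0.39) and AT5G35460 (0.39) were just inside, and ASG1 (0.41), AT3G07310 (0.42) and SAMDC (0.42) just outside among 475. Of the 47, 14 stayed members whichever of the 32 libraries was left out. With no library median subtracted 31 of 47 stayed members, among them 21 of the 25 night-peaking ones and 4 of the 13 with a peak between 0 and 8 h. ERD5 and GASA1 were among the 16 that left, with continuous-light swings of 0.403 and 0.405 against the limit of 0.4 and long-day swings of 3.09 and 2.12.

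The level in continuous light drifted in some members from one day to the next. This shift between cycles does not enter the 24 h curve that chose the members, and was tested over the 16 continuous-light libraries with limma, with p-values adjusted by the Benjamini-Hochberg method over all 11357 loci. At an adjusted p under 0.05, 8 of 47 members shifted, 1 higher and 7 lower in the second cycle, against 23.2% of all loci (11.4% higher and 11.8% lower). The share of the members, 17.02%, was not above that of all loci. Without adjustment 15 of 47 members passed, 3 of them higher, against 35.9% of all loci. SWEET11 had the smallest adjusted p. It averaged 45.1 FPKM in the second cycle and 70.9 FPKM in the first, a shift of -0.64 ± 0.06 (log2, SE) with an adjusted p of 3.36e-05 by limma. GASA1 averaged 61.9 FPKM in the second cycle and 92.8 FPKM in the first, with a shift of -0.57 ± 0.10 and an adjusted p of 0.00163 by limma. In SWEET11 the 8 libraries of the second cycle ran from 37.6 to 56.9 FPKM and those of the first from 56.1 to 85 FPKM, overlapping by a narrow margin.

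AT5G37360, described by RefSeq as an ammonium transporter 1-like protein, averaged 73.2 FPKM in the second cycle and 85.8 FPKM in the first (shift -0.22 ± 0.05, adjusted p = 0.00376 by limma). AT2G46600 averaged 30.4 FPKM in the second cycle and 40.6 FPKM in the first (shift -0.39 ± 0.08, adjusted p = 0.00417 by limma). AT1G75170, a phosphatidylinositol transfer protein of the Sec14 type, AT1G55450 and GT2 were lower by 0.31, 0.26 and 0.20, with adjusted p of 0.0196, 0.0234 and 0.0345 by limma. AT2G03640 was the member that rose, by 0.16 ± 0.05, with an adjusted p of 0.0320 by limma. Paired by hour of day (8 pairs), a fit chosen after seeing the data, 6 members passed by limma, 5 of them among the 8. The paired fit called 2283 of all 11357 loci, and the share of the members was not above that of all loci. The calls of AT1G75170, GT2 and AT2G03640 were lost there, with adjusted p of 0.0661, 0.0537 and 0.0821, and AGP30 passed with a shift of -0.25 ± 0.06 and an adjusted p of 0.0231. The calls of GT2 and AT2G03640 were also lost when some single continuous-light libraries were left out, 10 of 16 for GT2 and 9 of 16 for AT2G03640, with adjusted p up to 0.0692 and 0.0647, and that of AT2G03640 with a minimum mean of 1 FPKM (adjusted p = 0.0646 by limma). The other 6 calls held whichever continuous-light library was left out.

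**Figure D5:**
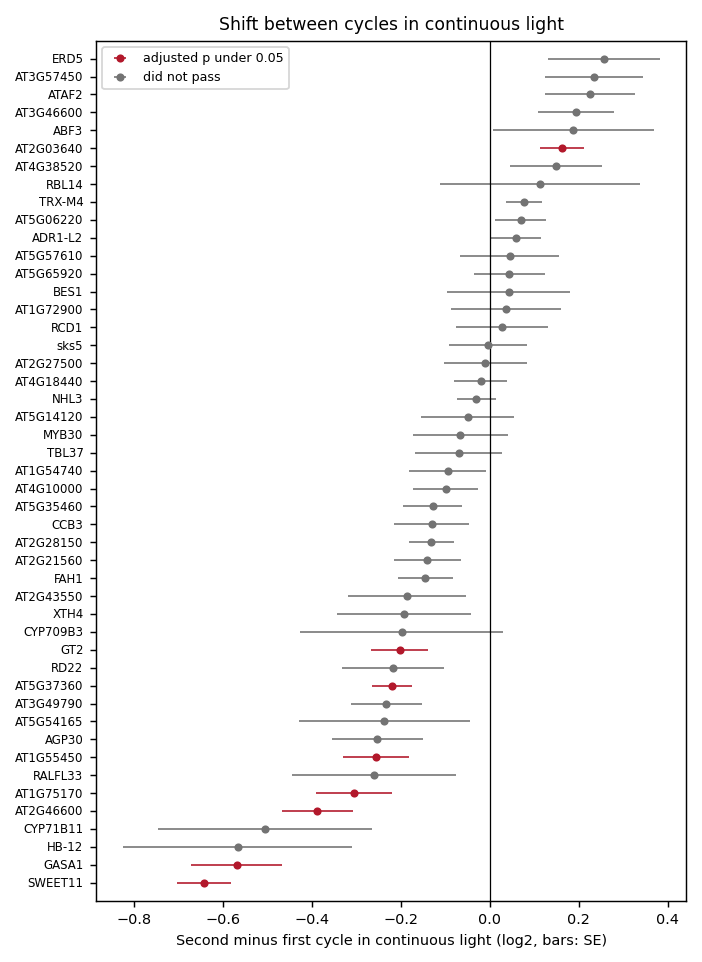
Second-cycle minus first-cycle level in continuous light (log2, horizontal) for each of the 47 members, with bars of 1 SE from limma. Red marks an adjusted p under 0.05: 7 members lie left of 0, with SWEET11 at -0.64 at the bottom, and AT2G03640 lies right of it at 0.16.

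The remaining tests called no member. They called no locus or isoform at all, so they cannot show that the members did not change. A difference of the 24 h curve between the 2 cycles in continuous light was called in 0 of 47 members and 0 of 11357 loci (0%) by limma at an adjusted p under 0.05, with 7 of 47 members and 5.82% of all loci at an unadjusted p under 0.05. A 12 h component in continuous light was called in 0 of 47 members and 0 of 11357 loci (0%), with 5 of 47 and 4.3% without adjustment. Isoform usage, the log2 ratio of an isoform to the rest of its gene with 0.5 FPKM added to each, was tested for a 24 h rhythm in 37 isoforms of 15 members in long days and in 33 isoforms of 13 members in continuous light. No isoform passed in long days (0 of 9183 isoforms over all loci, 0%) or in continuous light (0 of 8719, 0%) by limma. Without adjustment 8 of 37 member isoforms passed in long days against 6.45% of all, and 0 of 33 in continuous light against 5.34% of all. The 8 were 3 isoforms of RCD1, both of AT4G10000, and 1 each of AT2G03640, AT3G46600 and ABF3. The isoforms of a gene share their total, so those of RCD1 and AT4G10000 are not separate observations. The long-day swing of the summed isoforms chose the members, and a swing in 1 isoform can raise both that sum and its share. Nothing is read from the long-day excess over all isoforms.

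Of 16 lists of clock, light, photosynthesis, metabolism, splicing and marker genes, 1 gene was a member. It was ERD5 in the list of dark and starvation genes, of whose 20 measured genes 5 met the long-day limits and 5 had a continuous-light swing under 0.4 (background 4.6 and 62.8% of all loci). Its median swing was 1.21 in long days and 1.16 in continuous light, against 0.35 and 0.31 over all loci. In that list DIN10 had a long-day swing of 2.71 ± 0.57 and a continuous-light swing of 1.46 ± 0.28, BCAT2 2.196 ± 0.33 and 1.97 ± 0.36, and ASN1 1.04 ± 0.46 and 3.90 ± 0.30. Clock genes had 15 of 23 measured genes past the long-day limits and 0 members, with a median swing of 2.597 in long days and 2.03 in continuous light. Light-harvesting genes had 12 of 18, photosystem and electron transport genes 18 of 27 and starch and sucrose genes 12 of 22 past the long-day limits, each with 0 members. The other lists held 0 members as well, among them 31 measured splicing and polyadenylation genes. Members were 0.414% of all loci, so lists of this size would seldom hold one, and nothing is read from their absence.

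Library-wide measures bear on all of these values. The summed FPKM per library was 569534 to 587307 in long days and 578473 to 622006 in continuous light, and the number of reads behind each library is not known. The library median ranged over 0.19 in long days and 0.14 in continuous light (log2) and was subtracted. The tissue label was checked against markers. LHCB2.1 of leaves had 21.7 to 916 FPKM in long days and 172 to 1536 FPKM in continuous light, and RBCS1A had 8.86 to 5013 and 2302 to 4529 FPKM. The root marker PYK10 had 2086 to 3817 FPKM in long days and 2377 to 3638 FPKM in continuous light. Other root markers were far lower. SCR had 14.3 to 20.6 and 11.1 to 16.6 FPKM, and CASP1 had 1.67 to 9.77 and 6.71 to 11.3 FPKM. COBL9, PLT1 and PLT2 had medians of 1.64, 1.525 and 1.27 FPKM in long days and 2.04, 0.65 and 0.32 FPKM in continuous light. Of these 8 leaf and root markers 1, PLT2, was at 0 in 1 long-day library. The root list is another set of 8 markers, without the leaf genes, and PYK10 made up most of its sum. The summed level of this list was 2626 to 3861 FPKM in the dark and 2125 to 3656 FPKM in the light of long days, and 2482 to 3679 and 2408 to 3348 FPKM at the same hours of continuous light. Its part in the members' curves was not tested. Members in assembled genes that merge several loci, which may share reads with a neighbouring locus, were RCD1, CYP709B3, AT4G10000, AT4G38520, sks5 and BES1 in long days and AT4G10000 in continuous light.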

How the data were processed

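RNA of whole seedlings was sequenced, and each regime's deposited table gives the FPKM of each transcript in 16 libraries, per the file headers. The submitters' processing notes name TAIR10 as the build, with the aligner and quantifier not given in the sources used here. Assembled transcripts were merged separately in each table, so tests were run only within a table. Rows of annotated transcripts were summed per locus, and log2(FPKM + 1) minus the library median was fitted with a 24 h cosine and sine. RefSeq TAIR10.1 supplied names and sequences; its gene models had the deposited chromosome, start and end for 11356 of 11357 loci. Tests used limma 3.58.1 in R 4.3.3 with Benjamini-Hochberg adjustment over all features and a call at an adjusted p under 0.05. Gene tests used an intensity trend and isoform tests did not. Both were run on simulated gene levels with the residual spread of continuous light, so the isoform test was not tried on simulated isoform ratios. Tables were handled with pandas 2.3.3 and numpy 2.4.6. Folds are on the log2(FPKM + 1) scale and understate low genes. The depth in reads is unknown, so precision was judged by how far libraries scattered from the fit. Nothing says that libraries came from separate cultures, so the spread behind a p-value is that among these libraries and may be technical.

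The members, the gene lists and their roles were chosen with earlier results of these data known. Genes were named by rule: the 12 largest long-day swings, members in the lists, up to 4 per test by adjusted p, the 3 loci on each side of each limit, and the 3 most like each group's mean curve. Members named beyond these were chosen by role after their values were seen. The alternatives were another pseudocount, no median subtraction, quantile normalization, other minimum means, added assembled transcripts, merged loci left out, stricter limits, other isoform settings and each library left out. Pairing the continuous-light cycles by hour of day was added after seeing the data.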

Additional observations from a re-analysis of the deposited data

How the results depend on the processing

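The number of members depended most on the limits. It was 47, and became 77 with a minimum mean of 1 FPKM (46 of the 47 among them), 27 with a long-day swing of at least 1.2, 29 with an R squared of at least 0.7 and 24 with a continuous-light swing under 0.3. Leaving out each library in turn gave 39 to 59 members. It was 46 with a pseudocount of 0.5, 56 with FPKM as deposited, 50 with quantile normalization, 32 with a minimum mean of 10 FPKM, 51 with assembled transcripts added and 41 without merged loci, and 18 of the 47 stayed members under all 7 of those other settings of scaling, filter and counting. Loci shifted between cycles in continuous light numbered 2152 to 3347 under the other settings and 2215 to 2682 with each library left out, against 2630, with 8 to 11 and 6 to 9 members among them. The 12 h component was called in 1 locus with quantile normalization, in 1 with assembled transcripts added, and in 0 to 1 with each library left out. The difference of the curve between cycles was called in 0 to 1 locus with each library left out. With 1 FPKM added, 2 isoforms in long days and 6 in continuous light were called, and leaving out each library gave 0 to 4 in continuous light. None of the calls of the 12 h component, the curve difference or the isoforms was of a member, and the cause of each change was not tested. No shift between cycles that was called in a member reversed, but AT2G03640 missed the threshold with a minimum mean of 1 FPKM. The calls of 3 members were lost in the paired analysis, with hour of day as the replicate block over 8 pairs of continuous-light libraries, chosen after seeing the data. It called 2283 loci, 2156 of them among the 2630. The pairs share an hour of sampling and nothing else in the labels. With 1 library per time point, a single library weighs on every curve.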
